A study of Homo sapiens with 4 samples.

Results

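The 4 genes described here, CEACAM5, CEACAM6, CEACAM7 and CEACAM1, encode carcinoembryonic antigen-related cell adhesion molecules. They were taken as every probe set whose annotated gene symbol is one of the 4, which gave 4 probe sets, 1 per gene, among 33297 probe sets and 18417 named genes. RNA came from SNU-16, an established human gastric carcinoma line, after growth in BALB/c nude mice, which lack mature T cells. Ovary round 2 cells came from the ovarian metastasis that formed when ovary-derived cells of round 1 were put back into the stomach wall, and ovary round 1 cells from the ovarian metastasis of the first implantation of SNU-16. Stomach round 2 cells came from the stomach tumour that formed from stomach-derived cells of round 1, and stomach round 1 cells from the stomach tumour of the first implantation. Round 1 cells were kept in culture for a week before they were injected again, and RNA was taken from cell pellets. All 4 lines therefore share the parental line, the stomach wall as the site of injection and the mouse host. There was 1 array for each of the 4 combinations, 2 per site and 2 per round, and no array of the parental cells was used. The 2 arrays of a site are successive passages of 1 lineage, so they are not independent replicates and their spread holds the difference between rounds. That spread may also be partly technical. The fits below treat the arrays as independent, so their p values do not measure the spread between lineages. The sample descriptions name conflicting sites for the round 2 lines, and the titles were followed; an exchange of those arrays would turn the sign of each round 2 site difference, change the mean site differences, the round differences within a site and the interaction, and leave the mean round difference as it is.

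CEACAM proteins are cell surface glycoproteins built from immunoglobulin-like domains, and most bind themselves or each other on neighbouring cells. CEACAM5 (carcinoembryonic antigen, CEA), CEACAM6 and CEACAM7 are held in the membrane by a glycosylphosphatidylinositol (GPI) anchor. CEACAM1 has a transmembrane segment and, in its long isoforms, a cytoplasmic tail with inhibitory tyrosine motifs that recruit the phosphatases SHP-1 and SHP-2. CEACAM5 is the serum marker followed in gastrointestinal cancer, and CEACAM5 and CEACAM6 are often abundant in gastric and colorectal carcinomas. CEACAM1 and CEACAM6 are also carried by neutrophils.

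The 4 genes lie in a cluster on chromosome 19 and their start regions resemble one another. The 250 bases before the RefSeq start of each gene (build GRCh38.p14, from the RefSeq promoter table, where all 4 genes matched) are given 5′ to 3′ because they show how far the members share their upstream sequence. Capitals mark matches, on either strand, to 3 motifs: CACGTG, the E-box that USF factors bind; GAAA, any 2 bases and GAAA again, a motif of interferon regulatory factors; and GGGCGG, the GC box of SP1.
CEACAM5 (chr19:41708376-41708625, plus strand): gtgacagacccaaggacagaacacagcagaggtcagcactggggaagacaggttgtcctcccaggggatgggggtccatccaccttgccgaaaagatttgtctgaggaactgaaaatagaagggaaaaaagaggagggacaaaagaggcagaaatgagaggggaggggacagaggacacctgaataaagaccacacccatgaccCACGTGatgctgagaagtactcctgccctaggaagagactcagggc
CEACAM6 (chr19:41755280-41755529, plus strand): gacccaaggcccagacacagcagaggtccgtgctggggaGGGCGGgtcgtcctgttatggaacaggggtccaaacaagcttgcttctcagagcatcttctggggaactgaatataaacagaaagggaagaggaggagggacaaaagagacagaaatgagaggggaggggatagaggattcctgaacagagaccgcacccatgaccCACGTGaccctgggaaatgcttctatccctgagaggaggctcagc
CEACAM7 (chr19:41688271-41688520, minus strand): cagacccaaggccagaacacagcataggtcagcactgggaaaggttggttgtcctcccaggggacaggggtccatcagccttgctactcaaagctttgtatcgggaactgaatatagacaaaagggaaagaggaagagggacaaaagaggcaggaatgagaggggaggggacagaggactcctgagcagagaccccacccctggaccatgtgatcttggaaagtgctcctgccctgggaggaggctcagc
CEACAM1 (chr19:42528482-42528731, minus strand): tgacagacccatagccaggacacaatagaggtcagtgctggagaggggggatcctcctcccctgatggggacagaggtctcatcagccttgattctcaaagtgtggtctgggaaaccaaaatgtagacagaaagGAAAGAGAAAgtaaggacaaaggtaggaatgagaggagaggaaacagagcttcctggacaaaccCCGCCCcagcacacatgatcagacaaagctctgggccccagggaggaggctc

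CEACAM5 and CEACAM6 each had 1 CACGTG match, starting 46 and 45 bases before the start, inside the common run acccatgaccCACGTGa. CEACAM6 also had 1 GGGCGG match, and CEACAM1 had 1 GGGCGG match and 1 match to the interferon regulatory factor motif. CEACAM7 had no match to the 3 motifs in this window. Of 35116 promoter windows of the same length, 6.34% held CACGTG, 3.02% the interferon regulatory factor motif and 42.6% GGGCGG. Aligned end to end, the windows of CEACAM5 and CEACAM7 were identical in 80.5% of alignment columns, those of CEACAM6 and CEACAM7 in 79.9% and those of CEACAM5 and CEACAM6 in 74.6%. The CEACAM1 window was identical in 66.2% to 71.9% of columns with the other 3. These windows lie mostly upstream of the transcripts and say nothing of the probes; how far the probe sets of these related genes cross-react was not tested.

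Among the GPI-anchored members, CEACAM5 (probe set 8029086) had a log2 level of 11.30 in ovary round 2 and 9.70 in ovary round 1, against 11.34 in stomach round 2 and 10.95 in stomach round 1. The round 1 ovary array was the low one, and the round 2 arrays of both sites lay within 0.041 of each other. CEACAM6 (probe set 8029098) had 11.42 in ovary round 2 and 10.45 in ovary round 1, against 11.49 in stomach round 2 and 11.05 in stomach round 1, the same order of arrays over a narrower range. CEACAM7 (probe set 8037053), in the adult gut mainly a gene of the colonic surface, had 5.66 in ovary round 2 and 5.27 in ovary round 1, against 5.66 in stomach round 2 and 5.67 in stomach round 1. Its 4-array mean of 5.57 lay under the signal minimum of 5.64, the 30th percentile of all probe set means. It was therefore not among the 14547 genes tested, and its values are low.

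The transmembrane member CEACAM1 (probe set 8037205) had 8.66 in ovary round 2 and 7.38 in ovary round 1, against 8.92 in stomach round 2 and 8.25 in stomach round 1. Thus CEACAM5, CEACAM6 and CEACAM1 shared 1 order of levels, stomach round 2, ovary round 2, stomach round 1 and then ovary round 1. With 1 array per combination, neighbours in that order have no spread of their own to be set against. All 4 genes were lowest on the round 1 ovary array; of the 3 above the signal minimum this held for 3, against 23.9% of all genes tested. Being lowest on that array and highest on the round 2 stomach array held for 3 of 3, against 9.36% of all genes tested. This order was read from the members' own values, and the members were chosen with earlier results of these data known. The counts of members and the shares beside them, here and below, are therefore descriptions without a test.

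**Figure D1:**
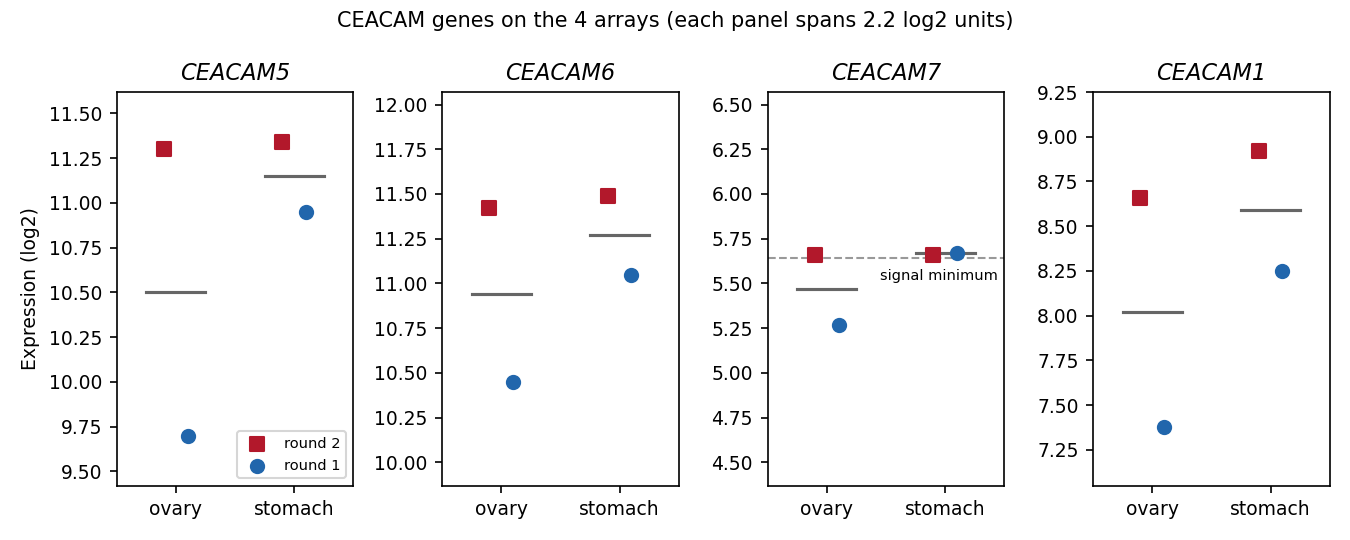
Log2 expression of CEACAM5, CEACAM6, CEACAM7 and CEACAM1 (y axis) in ovary and stomach lines (x axis), with round 2 as red squares, round 1 as blue circles and the mean of the 2 arrays of a site as a grey bar. In CEACAM5, CEACAM6 and CEACAM1 the round 2 arrays lie above the round 1 arrays and the ovary round 1 array is lowest, while CEACAM7 stays near the signal minimum (dashed line).

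Comparing the rounds asks which transcripts differed between the first and the second passage through a mouse. The tested CEACAM genes were higher in round 2 at both sites, but none passed the test across all genes. CEACAM5 averaged 11.32 ± 0.029 in round 2 and 10.33 ± 0.88 in round 1 (SD, n = 2 each), a 1.98-fold mean difference (log2 0.99 ± 0.42, SE; limma adjusted p = 0.359). CEACAM1 averaged 8.79 ± 0.18 in round 2 and 7.81 ± 0.62 in round 1, a 1.97-fold difference (0.98 ± 0.31, SE; limma adjusted p = 0.299). CEACAM6 averaged 11.46 ± 0.052 in round 2 and 10.75 ± 0.425 in round 1, a 1.63-fold difference (0.71 ± 0.21, SE; limma adjusted p = 0.294). In each of the 3 genes both round 2 arrays lay above both round 1 arrays, which was so for 22.2% of all genes tested.

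The mean round differences of CEACAM5, CEACAM1 and CEACAM6 ranked 31st, 32nd and 94th highest of 14547. Before adjustment, limma's fit across all genes gave 2 of the 3, CEACAM1 and CEACAM6, a p under 0.05, as it did 15% of all genes tested. The 95% intervals of the log2 differences ran from 0.17 to 1.78 for CEACAM1, from 0.16 to 1.26 for CEACAM6 and from -0.11 to 2.08 for CEACAM5. Of all genes tested, limma called 0 (0%), with a smallest adjusted p of 0.149, and an exact permutation test of 2 arrays against 2 cannot go below p = 0.333. CEACAM7 averaged 5.66 in round 2 and 5.47 in round 1. Fitted without the signal minimum, its difference was 0.19 ± 0.15 (SE; limma adjusted p = 0.59).

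Within the lineages, the round difference was larger in ovary than in stomach lines for each tested CEACAM gene. CEACAM5 was 3.02-fold higher in ovary round 2 than in ovary round 1, and 1.31-fold higher in stomach round 2 than in stomach round 1. For CEACAM1 the folds were 2.43 in ovary and 1.59 in stomach, and for CEACAM6 1.96 in ovary and 1.36 in stomach. Of 14547 genes, 23 had an ovary difference as high as that of CEACAM5, itself included, whereas 617 had a stomach difference as high as its own. At least 2-fold higher in ovary round 2 were 2 of the 3 tested members, against 0.701% of all genes tested, and none of the 3 reached 2-fold in stomach, against 0.158%. At least 1.5-fold higher were 3 of 3 in ovary, against 2.41% of all genes tested, and 1 of 3, CEACAM1, in stomach, against 1.23%. The difference between the lineages is the interaction of site and round. With 1 array per combination it has no residual of its own, so it was fitted with the site and round differences left in the residual, which widens its error; its p is no test of the lineages alone. It was 1.21 ± 1.12 (SE) for CEACAM5, 0.61 ± 1.07 for CEACAM1 and 0.53 ± 0.75 for CEACAM6, each with limma adjusted p = 1, and 0% of all genes tested were called. Without the ovary round 1 array, the round difference was 0.36 for CEACAM5, 0.54 for CEACAM1 and 0.41 for CEACAM6.

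**Figure D2:**
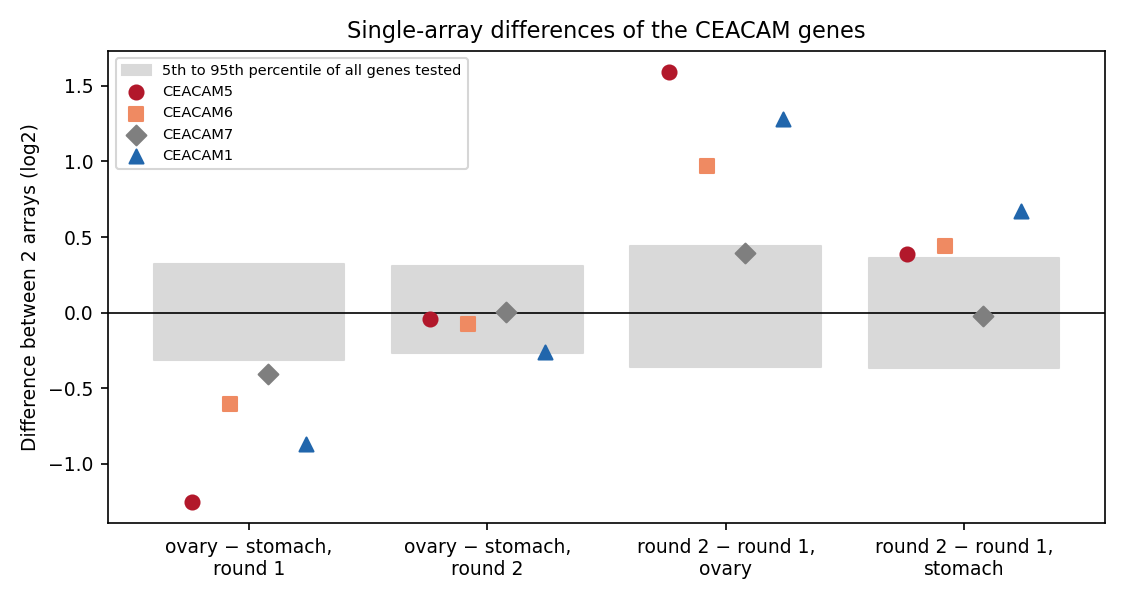
Log2 differences between 2 arrays (y axis) for CEACAM5, CEACAM6, CEACAM7 and CEACAM1, for ovary minus stomach within each round and for round 2 minus round 1 within each site (x axis), over the range from the 5th to the 95th percentile of the 14547 genes tested (grey). CEACAM5, CEACAM6 and CEACAM1 lie outside that range between the sites in round 1 and between the rounds at both sites, and all 4 genes lie inside it between the sites in round 2.

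Comparing the sites asks which transcripts differed between cells of ovarian metastases and cells of stomach tumours. All 4 CEACAM genes were lower in ovary in round 1. In round 2 the differences lay between -0.073 and 0.007 for CEACAM5, CEACAM6 and CEACAM7, while CEACAM1 was 1.2-fold lower in ovary. In round 1 the ovary minus stomach difference was -1.25 for CEACAM5 (2.38-fold lower), -0.87 for CEACAM1 (1.83-fold lower), -0.60 for CEACAM6 (1.52-fold lower) and -0.41 for CEACAM7 (1.32-fold lower, with its mean under the signal minimum). At least 1.5-fold lower were 3 of the 3 tested members, against 1.11% of all genes tested, and 1, CEACAM5, was at least 2-fold lower, against 0.275%. The ovary round 1 array enters these counts, those between the rounds in ovary and the count of genes lowest on it. They are therefore not separate observations. In round 2 the differences were -0.041 for CEACAM5, -0.26 for CEACAM1, -0.073 for CEACAM6 and 0.007 for CEACAM7. None of the 3 tested members was then 1.5-fold lower, against 0.419% of all genes tested.

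Over both rounds, CEACAM5 averaged 10.50 ± 1.13 in ovary and 11.15 ± 0.27 in stomach (SD, n = 2 each), a difference of -0.65 ± 0.545 (SE; limma adjusted p = 1). CEACAM1 averaged 8.02 ± 0.91 in ovary and 8.59 ± 0.48 in stomach, and differed by -0.57 ± 0.48 (SE; limma adjusted p = 1). CEACAM6 averaged 10.94 ± 0.69 in ovary and 11.27 ± 0.31 in stomach, and differed by -0.34 ± 0.36 (SE; limma adjusted p = 1). In 0 of 3 genes did both ovary arrays lie below both stomach arrays, against 11.2% of all genes tested. The spread within a site holds the round difference. With the round as a replicate block, the SE of the site difference was 0.28 for CEACAM5, 0.16 for CEACAM1 and 0.15 for CEACAM6, and limma's adjusted p lay between 0.77 and 0.80. Limma called 0% of all genes tested with or without the block. Without the block, 378 genes had an unadjusted p under 0.05, none of them a CEACAM member. With the block, 916 genes did (6.3% of all genes tested), CEACAM1 among them (limma unadjusted p = 0.0169). Without the ovary round 1 array the fitted value was 0.15 for CEACAM5, 0.076 for CEACAM1 and 0.15 for CEACAM6, but that fit sets ovary round 2 against the mean of both stomach rounds and so holds part of the round difference. Matched within round 2, the differences were -0.041, -0.26 and -0.073 for these 3 genes.

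Among the other CEACAM genes, 7 had a probe set and 5 were tested, and none was called between rounds or sites (0% of all genes tested). CEACAM8, a GPI-anchored neutrophil protein, had the same order of arrays over a range of 0.22, with 6.33 in ovary round 2 and 6.18 in ovary round 1, against 6.40 in stomach round 2 and 6.30 in stomach round 1. Its mean round difference was 0.12 ± 0.083 (SE). CEACAM3, a phagocytic receptor of neutrophils, had 7.26 and 7.36 in ovary rounds 2 and 1, against 7.28 and 7.26 in stomach rounds 2 and 1. For CEACAM3, CEACAM4, CEACAM16 and CEACAM19 the mean round differences ran from -0.21 to -0.044. CEACAM20 and CEACAM21 lay under the signal minimum. CEACAM18 and CEACAM22P were not analysed here.

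Along chromosome 19, CEACAM7, CEACAM5 and CEACAM6 are neighbours among the genes with a probe set, and CEACAM1 lies apart from them behind genes with smaller mean site and round differences than CEACAM5, CEACAM1 and CEACAM6. In GRCh38.p14 the interval with CEACAM21 at its first end and CEACAM8 at its last holds 28 genes with a probe set, and 22 of the tested ones are not members; this interval was chosen after the members' values were seen. The round 2 minus round 1 difference of those 22 in ovary had a median of -0.019 and ran from -0.33 to 0.38, below the 0.97 of CEACAM6. In round 1, their ovary minus stomach difference had a median of -0.056 and ran from -0.28 to 0.33. Of the 22, 15 were lower in ovary, against 51.4% of all genes tested. CEACAM3, next to CEACAM6 among the genes with a probe set, differed by 0.11 between the sites in round 1, and CXCL17, a secreted mucosal protein gene next to CEACAM1, by 0.33.

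**Figure D3:**
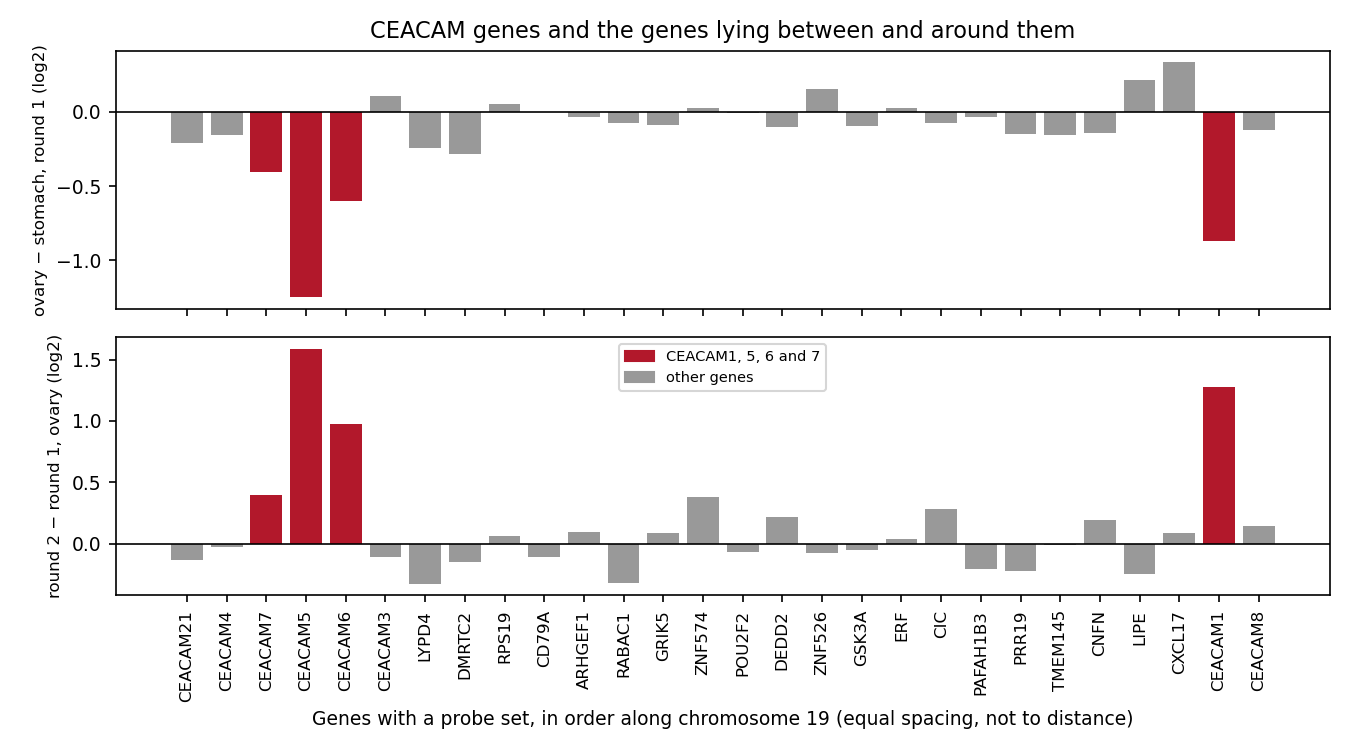
Log2 difference of each gene with a probe set between CEACAM21 and CEACAM8, in order along chromosome 19 (x axis, equal spacing), for ovary minus stomach in round 1 (top) and for round 2 minus round 1 in ovary (bottom), with CEACAM5, CEACAM6, CEACAM7 and CEACAM1 in red. The 4 red bars are the longest downward bars on top and the longest upward bars at the bottom, while the other tested genes stay between -0.33 and 0.38.

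Genes through which the CEACAM proteins signal were then read from lists chosen with earlier results of these data known. Of 10 tested partners of CEACAM1, 9 were higher in round 2, with a median difference of 0.16. Among all genes tested the median was -0.019 and 45.4% were higher. Of the 10 partners, 0 were called (0% of all genes tested). PTPN6, which encodes SHP-1, was the exception at -0.26 ± 0.071 (SE). BCL10, an adaptor of NF-kB signalling, differed by 0.31 ± 0.074, EGFR by 0.30 ± 0.13 and the insulin receptor INSR, which CEACAM1 helps to internalise in liver, by 0.255 ± 0.14. Among 8 tested genes linked to signalling by GPI-anchored CEACAMs, 7 were higher in round 2 (median 0.295). Of these, 0 were called (0% of all genes tested). CAV1, the scaffold protein of caveolae, differed most, with 8.02 in ovary round 2 and 6.92 in ovary round 1, against 7.86 in stomach round 2 and 7.15 in stomach round 1 (0.91 ± 0.11, SE; limma adjusted p = 0.287). The fibronectin receptor subunit ITGA5 was higher in ovary by 1.09 in round 2 alone, with -0.11 in round 1. ITGAV differed by 0.36 ± 0.15 between rounds and the death receptor TNFRSF10B by 0.41 ± 0.22.

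Regulators of CEACAM transcription and splicing were higher in round 2 in 12 of 15 tested genes (median 0.14), against 45.4% of all genes tested. Of the 15, 0 were called (0% of all genes tested). IRF1, an interferon regulatory factor, had 7.68 in ovary round 2 and 7.18 in ovary round 1, against 7.82 in stomach round 2 and 7.51 in stomach round 1, so its order of arrays was that of the 3 CEACAM genes over a smaller range. Its round difference was 0.41 ± 0.135 (SE; limma adjusted p = 0.309). The splicing factor HNRNPA1 differed by 0.42 ± 0.14 between rounds, SP1 by 0.16 ± 0.115, and KLF4, a factor of gut epithelial differentiation, by 0.31 ± 0.20.

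Of 27 tested enzymes that build and attach the GPI anchor, 14 were higher in round 2 (median 0.010) and 13 higher in ovary (median -0.001). Of the 27, 0 were called (0% of all genes tested). Among all genes tested, 45.4% were higher in round 2 and 50.6% higher in ovary. Lower in ovary were 11 of the 27 within round 1 and 21 of the 27 within round 2 (median -0.039), against 51.4% and 45.5% of all genes tested. PGAP2, which remodels the lipid of the anchor, was lower in round 2 (-0.62 ± 0.155, SE) and the mannosyltransferase gene PIGZ higher (0.49 ± 0.23). PIGW, an inositol acyltransferase, had a site difference of 0.61 ± 0.18. Of 22 other GPI-anchored surface proteins, 14 were higher in round 2 (median 0.045) and 16 lower in ovary (median -0.050), against 45.4% and 49.3% of all genes tested. Of the 22, 0 were called (0% of all genes tested). CD109, a TGF-beta co-receptor, stood furthest out, with 8.57 in ovary round 2 and 6.36 in ovary round 1, against 8.76 in stomach round 2 and 7.28 in stomach round 1, which is the order of arrays seen in CEACAM5, CEACAM6 and CEACAM1. LYPD3 differed by 0.56 ± 0.15 between rounds and the urokinase receptor PLAUR by 0.36 ± 0.092, while NT5E, the ecto-nucleotidase CD73, was lower in ovary (-0.43 ± 0.097). None of these values passed the test.

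Of 15 tested other adhesion molecules of epithelium, 9 were higher in round 2 (median 0.057) and 10 lower in ovary (median -0.071), against 45.4% and 49.3% of all genes tested. Of the 15, 0 were called (0% of all genes tested). CDH17, the liver-intestine cadherin, differed by 0.41 ± 0.18 (SE) between rounds and by -0.32 ± 0.22 between sites. CXADR, a junctional virus receptor, differed by 0.36 ± 0.099 between rounds and ALCAM by 0.34 ± 0.088. In a panel of tumour markers that includes CEACAM5, 9 of 11 were lower in ovary (median -0.29) and 7 higher in round 2 (median 0.12), against 49.3% and 45.4% of all genes tested. Of the 11, 0 were called (0% of all genes tested). TFF1, a gastric trefoil peptide, had 9.34 in ovary round 2 and 7.94 in ovary round 1, against 10.16 in stomach round 2 and 10.08 in stomach round 1, so it too was lowest on the ovary round 1 array. KRT20, an intestinal keratin, was highest there, with 6.0 in ovary round 2 and 6.96 in ovary round 1, against 5.28 in stomach round 2 and 5.74 in stomach round 1.

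**Figure D4:**
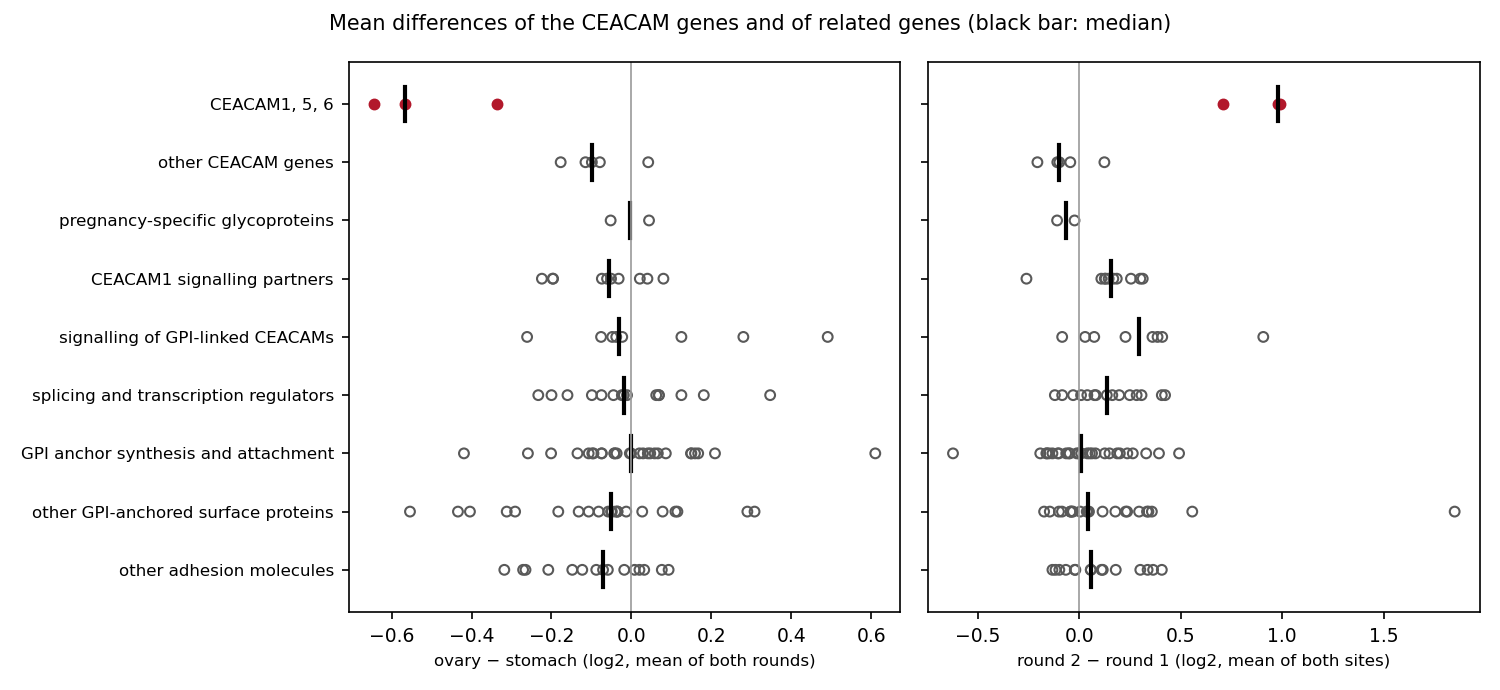
Mean log2 differences of each tested gene (points) and the median (black bar) for CEACAM1, CEACAM5 and CEACAM6 (red) and for lists of related genes, for ovary minus stomach on the left and round 2 minus round 1 on the right (x axes). The 3 CEACAM genes lie between -0.65 and -0.34 on the left and between 0.71 and 0.99 on the right. The medians of the 8 other lists drawn, which leave out the panel of tumour markers, lie between -0.099 and 0.295. Single genes of those lists lie within or past the CEACAM values, such as CD109 (1.85) and CAV1 (0.91) on the right and NT5E (-0.43) on the left.

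Markers of the carcinoma epithelium were also low on the ovary round 1 array. Of 10 measured epithelial markers, 9 were lowest on the ovary round 1 array, against 23.9% of all genes tested. In round 2, 9 were higher, against 45.4%. Some margins were small: CLDN4 had 9.74 in ovary round 1 and 9.79 in stomach round 2. Their summed log2 level was 113.5 in ovary round 2 and 109.0 in ovary round 1, against 113.5 in stomach round 2 and 112.1 in stomach round 1, and none was under the signal minimum. The median ovary minus stomach difference was -0.26 in round 1 and -0.007 in round 2. KRT7, a keratin of simple epithelia, spanned the most, with 9.89 in ovary round 2 and 7.73 in ovary round 1, against 9.68 in stomach round 2 and 8.68 in stomach round 1. CDH1, which encodes E-cadherin, and CLDN7, a claudin, differed by at most 0.13 between any 2 arrays of a site. In bulk RNA, fewer cells with a gene and less RNA per cell cannot be told apart, and the part of epithelial content in the CEACAM differences was not tested.

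Neutrophil markers did not share the CEACAM order, CEACAM8 apart. Of 8 tested, 7 were lower in round 2 (median -0.17), against 54.5% of all genes tested. CEACAM8, 1 of the 8, was lowest on the ovary round 1 array, against 23.9% of all genes tested. CXCR2, under the signal minimum, was also lowest there (4.21) and highest on the stomach round 2 array (4.47). The summed log2 level of the 10 with a probe set ran from 59.0 to 59.9 in ovary and from 59.5 to 60.9 in stomach. Of these 10, S100A8 and CXCR2 lay under the signal minimum, while the 8 tested, MPO and ELANE among them, had means above it. Leukocyte sums ran from 51.4 to 51.7 in ovary and from 52.1 to 52.5 in stomach, fibroblast sums from 50.2 to 50.4 in ovary and from 49.9 to 50.9 in stomach, and endothelial sums from 45.7 to 45.8 in ovary and from 45.9 to 46.1 in stomach. Among the endothelial markers, ESAM had 7.39 in ovary round 2 and 6.56 in ovary round 1, against 7.67 in stomach round 2 and 6.56 in stomach round 1, so both round 2 arrays lay above both round 1 arrays, with limma adjusted p = 0.287 for the round difference; its part in the round differences of the CEACAM genes was not tested. Mesothelial sums ran from 32.0 to 32.6 in ovary and from 31.8 to 32.2 in stomach, and ovarian follicle sums from 59.9 to 60.8 in ovary and from 59.7 to 61.1 in stomach. Host cells in these lines would be mouse cells, whereas the markers were read with probe sets named for human genes. How far mouse RNA is read by those probe sets was not tested.

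The genes whose values followed a member most closely were found by the Euclidean distance between the 4 values of each gene, after subtraction of its own mean, over all genes tested. With 4 arrays many genes come close, so these are descriptions without a test. CEACAM6 was nearest to SPTSSB, a subunit of serine palmitoyltransferase (distance 0.047), STYK1, STS, which encodes steroid sulfatase, the sialyltransferase ST6GALNAC2 and the lipid transporter ABCA5. CEACAM5 was nearest to GBP2, an interferon-induced GTPase (distance 0.16), the retinol dehydrogenase DHRS9, MRAP2, the oligoadenylate synthetase OAS2 and the corepressor TLE4. CEACAM1 was nearest to TNFAIP3, which encodes the NF-kB inhibitor A20 (distance 0.17), TLR6, NMI, the histone gene H4C6 and NEBL. GBP2 had 7.74 in ovary round 2 and 6.24 in ovary round 1, against 7.75 in stomach round 2 and 7.27 in stomach round 1. Among the members themselves, CEACAM1 was the 9th nearest gene to CEACAM5, and CEACAM6 the 51st, with distances of 0.31 and 0.54. From CEACAM6, CEACAM1 was the 120th nearest and CEACAM5 the 646th. This distance depends on the size of a gene's range as well as on the shape of its 4 values. Pearson r with CEACAM6 over the 4 arrays was 0.995 for CEACAM1 and 0.981 for CEACAM5.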

How the data were processed

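Per the labels' protocols, TRIzol RNA of cell pellets was fragmented and biotinylated (WT Terminal Labeling Kit, Affymetrix). The authors deposited a single table of log2 expression values per probe set. The submitters' processing notes name Affymetrix Expression Console; the sources used here do not state the background correction, normalization and summarization. That the scale is log2 was judged from the range of the values, 2.25 to 14.2. Array medians were 6.80 to 6.84, and a shift common to all transcripts could not be seen in arrays scaled to one another.

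Probe sets were named through GEO's platform annotation, updated by gene identifier to RefSeq (GRCh38.p14): 19460 carry 1 symbol, 1754 several (not used, none naming a member) and 12083 are unnamed here. Each gene was represented by its brightest probe set, and the 14547 genes with a mean above the 30th percentile of all probe sets (5.64) were tested with limma 3.58.1 in R 4.3.3 over the 4 arrays (two-sided; threshold: Benjamini-Hochberg adjusted p under 0.05). Arrays were grouped by the site and round in their titles. Round numbers are shared by the sites; across genes, deviations from site means correlated at 0.411 within a round (2 pairs), so a replicate block was an alternative. The members, the lists and the rule for named genes (all members, up to 3 genes per list by site and by round difference, and the 5 genes nearest to a member with a range of at least 1 log2 unit) were chosen with earlier results of these data known. In simulated data with the real means and 200 changed genes, the site fit recovered 25.6% of 2-fold and 93.9% of 4-fold changes. False calls averaged 2.7 and 10 per run. The simulated arrays were independent, unlike the successive passages here, and the round fit was not simulated, so these rates need not hold for the real arrays. Promoters were aligned with Biopython 1.88, and figures drawn with matplotlib 3.10.9. Having 4 arrays limits all precision.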

Additional observations from a re-analysis of the deposited data

How the results depend on the processing

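For CEACAM5, CEACAM1 and CEACAM6, 99 of 102 alternative fits kept the direction, and no gene was called in any fit. Signal minima, choices among probe sets, priors and the block leave these differences as they are by construction, so this count says little about stability. The remaining 3 are the site differences without the ovary round 1 array, at 0.15 for CEACAM5, 0.076 for CEACAM1 and 0.15 for CEACAM6; those fits set ovary round 2 against both stomach rounds, and within round 2 the differences were -0.041, -0.26 and -0.073. Leaving out each array in turn, the site difference ran from -1.44 to 0.15 for CEACAM5, from -1.21 to 0.076 for CEACAM1 and from -0.82 to 0.15 for CEACAM6. The round difference then ran from 0.36 to 1.61 for CEACAM5, from 0.54 to 1.41 for CEACAM1 and from 0.41 to 1.01 for CEACAM6. In these fits a lone array is assumed to vary like the others. With the replicate block no call changed: the site difference of CEACAM1 had limma adjusted p = 0.77 (unadjusted p = 0.0169) and its round difference adjusted p = 0.208 (unadjusted p = 0.00172), and 0 genes were called between sites or rounds. Over all alternatives the adjusted p lay between 0.77 and 1 for the sites, 0.208 and 0.642 for the rounds, and at 1 for the interaction. Counts of genes at least 2-fold apart were 63 (ovary minus stomach, round 1), 32 (round 2), 130 (round 2 minus round 1, ovary) and 38 (stomach). At 1.5-fold they were 295, 178, 493 and 315, and at 3-fold 12, 5, 27 and 4. With a signal minimum at the 50th percentile the round 2 site count was 20. CEACAM7 passed only where no signal minimum was set. The interaction was not fitted with an array left out or with the block.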

Other observations

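Pregnancy-specific glycoproteins, placental secreted relatives of the CEACAM family encoded on chromosome 19, mostly had low values. Of 7 with a probe set, 5 lay under the signal minimum. PSG9 had 6.43 in ovary round 2 and 6.73 in ovary round 1, against 6.68 in stomach round 2 and 6.59 in stomach round 1, and PSG4 stood between 6.35 and 6.44 on all 4 arrays.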
